A study of Homo sapiens with 21 samples.

Results

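Phase II conjugation enzymes attach a polar group to a drug, hormone, bile pigment or reactive metabolite so that the cell can export it. The members described here were all genes on the arrays named as UDP-glucuronosyltransferases (UGT1A, UGT2 and UGT3A), as glutathione transferases (the soluble GST classes and the microsomal MGST) or as cytosolic sulfotransferases (SULT), with pseudogenes left out. This gave 54 genes of 43612 measured in the series, of which 21 were glucuronosyltransferases, 20 were glutathione transferases and 13 were sulfotransferases. The arrays of the hepatocellular carcinoma (HCC) lines carried 52 of them, without GSTT2B and UGT2A2, and the array of the other lines carried all 54.

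Glucuronosyltransferases sit in the endoplasmic reticulum and transfer glucuronic acid from UDP-glucuronate. The UGT1A enzymes come from a single locus in which alternative first exons, each with a promoter of its own, are spliced to shared downstream exons. Glutathione transferases couple glutathione to electrophiles, and sulfotransferases use the donor PAPS to sulfate phenols, steroids and amines. In hepatocytes the alpha-class glutathione transferases, the UGT2B enzymes and SULT2A1 are abundant, whereas the pi-class enzyme GSTP1 is known for being low in hepatocytes and present in bile duct cells and in many other epithelia.

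The study profiled 21 human cancer cell lines in ordinary culture medium with no treatment, on Illumina BeadChip arrays with 1 array for each line. Lung lines were Calu-1, Calu-3, Malme-3M, NCI-H1299 and NCI-H596, and pancreatic lines were AsPC-1, BxPC-3, Capan-1, Capan-2 and MIA-PaCa-2. HCC lines were Hep3B, HLF, Huh-1, JHH-4, JHH-6, PLC/PRF/5, SK-HEP-1, SNU-423, SNU-475, SNU-739 and SNU-886. Each line was read once, so spreads and p-values below are those between lines. Levels are given as log2 intensity after background correction and quantile normalization, with the HCC lines and the other 10 lines normalized apart because their array designs differed. No level was compared between the 2 designs or between genes. A gene was called detected in a line where the deposited detection p-value was under 0.05.

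Several libraries stood apart from their labels or from the rest. The array of Hep3B was the dimmest, with 24.9% of listed genes detected against 32.6% to 35.1% in the other HCC lines, and AFP, KRT8 and KRT18 were not detected in it. All 15 hepatocyte markers were detected in Huh-1 and in PLC/PRF/5, 7 were in SNU-886, 5 in SNU-475, 4 in Hep3B and 0 to 3 in the other 6 HCC lines. SK-HEP-1 is known as a line of endothelial origin. Of 6 endothelial markers, 2 were detected in SK-HEP-1 and likewise in Huh-1, JHH-6 and SNU-739, 3 in SNU-475 and 0 or 1 in the other 6 HCC lines. The library labelled Malme-3M, known as a melanoma line from a lung metastasis, had 1 of 7 melanocyte markers detected, with MLANA, TYR and SOX10 undetected, and 6 of 6 epithelial markers. The library labelled Calu-3 lacked CDH1, and the library labelled Capan-2 lacked KRT8, KRT18, KRT19 and SOX9. Calu-3 and Capan-2 each had 3 of 6 epithelial markers detected, as had NCI-H1299 and MIA-PaCa-2. Capan-2 also had 2 of 6 pancreatic ductal markers detected. Of 6 lung epithelial markers, 0 or 1 were detected in each lung line.

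The promoters of 5 genes are shown because the values below turn on these genes: GSTP1, whose level in HCC lines spread more than that of any other member, GSTA1 and GSTA2, which were both highest in Huh-1, and UGT1A1 and UGT1A6, which are first exons of the same locus with different patterns over lines. Sequences are RefSeq's, from GRCh38.p14, and run from 250 bases before to 50 bases after the annotated start, read 5′ to 3′ on the strand of the gene. In GSTP1 the capitals mark CG dinucleotides. In GSTA1, GSTA2 and UGT1A1 they mark GTTAAT, one arm of the palindrome bound by the hepatocyte factor HNF1, and the TATA letters TATAAA, each on either strand, so that ATTAAC and TTTATA are matches. In UGT1A6 they mark GCGTG, the core letters of the site known for the dioxin receptor AHR, on either strand.
GSTP1, chr11:67583562-67583861, plus strand: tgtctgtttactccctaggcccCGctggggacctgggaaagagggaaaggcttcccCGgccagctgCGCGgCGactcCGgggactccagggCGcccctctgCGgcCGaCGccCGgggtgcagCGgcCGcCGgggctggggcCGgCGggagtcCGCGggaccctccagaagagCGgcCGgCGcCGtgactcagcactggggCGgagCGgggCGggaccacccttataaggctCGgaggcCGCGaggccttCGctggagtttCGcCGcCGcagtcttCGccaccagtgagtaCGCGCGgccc
GSTA1, chr6:52803767-52804066, minus strand: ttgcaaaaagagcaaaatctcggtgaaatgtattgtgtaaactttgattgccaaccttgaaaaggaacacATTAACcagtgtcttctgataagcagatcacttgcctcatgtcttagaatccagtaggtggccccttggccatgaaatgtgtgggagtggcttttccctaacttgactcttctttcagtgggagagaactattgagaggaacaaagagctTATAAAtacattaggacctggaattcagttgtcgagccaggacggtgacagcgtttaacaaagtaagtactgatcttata
GSTA2, chr6:52763426-52763725, minus strand: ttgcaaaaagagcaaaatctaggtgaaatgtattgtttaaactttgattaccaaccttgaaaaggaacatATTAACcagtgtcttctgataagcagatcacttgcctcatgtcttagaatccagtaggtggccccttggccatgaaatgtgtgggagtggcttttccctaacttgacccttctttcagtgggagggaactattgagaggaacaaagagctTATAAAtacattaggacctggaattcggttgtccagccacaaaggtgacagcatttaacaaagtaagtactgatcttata
UGT1A1, chr2:233760020-233760319, plus strand: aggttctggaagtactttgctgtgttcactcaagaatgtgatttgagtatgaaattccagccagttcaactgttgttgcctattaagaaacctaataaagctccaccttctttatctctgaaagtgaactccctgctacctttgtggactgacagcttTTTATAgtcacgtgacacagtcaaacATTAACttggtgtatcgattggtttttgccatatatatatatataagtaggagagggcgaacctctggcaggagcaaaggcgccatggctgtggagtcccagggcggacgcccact
UGT1A6, chr2:233691452-233691751, plus strand: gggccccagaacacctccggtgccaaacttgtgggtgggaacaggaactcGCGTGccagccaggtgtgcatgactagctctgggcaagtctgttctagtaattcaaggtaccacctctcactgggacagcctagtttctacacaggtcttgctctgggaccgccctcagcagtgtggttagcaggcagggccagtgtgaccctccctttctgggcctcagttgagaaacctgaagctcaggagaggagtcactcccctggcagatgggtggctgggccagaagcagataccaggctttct

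Promoters of this kind were matched for 44 of the 54 members. The GSTP1 window held 36 CG dinucleotides, against a median of 14 over 27305 promoters of the same length. A window was called CG-rich where GC content was at least 50% and the observed over expected CG ratio was at least 0.6. By that rule 10 of 44 member promoters were CG-rich (22.7%), against 46.9% of all promoters. All 10 belonged to glutathione transferases, which had 17 matched promoters, and none of the 17 glucuronosyltransferase or 10 sulfotransferase promoters qualified. The letters GTTAAT occurred in 9 of 44 member promoters (20.5%) and in 6.89% of all, and TATAAA in 12 of 44 (27.3%) and in 12% of all. The antioxidant response core TGACNNNGC, on either strand, lay in 9 of 44 (20.5%) and in 13.6% of all, and GCGTG in 13 of 44 (29.5%) and in 36.3% of all. These matches are letters in a window and show no binding. The GSTA1 and GSTA2 windows were identical at 288 of 300 positions, and those of SULT1A3 and SULT1A4 at 300 of 300.

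In the HCC lines 45 of 52 members were detected in at least 1 line, or 18 of 19 glutathione transferases, 12 of 13 sulfotransferases and 15 of 20 glucuronosyltransferases. For scale, 59.6% of all genes were detected in at least 1 HCC line. Detection in every HCC line was found for 8 members, namely GSTK1, GSTM1, GSTO1, MGST1, MGST2, MGST3, SULT1A3 and SULT6B1. Of these, SULT6B1 lay near the floor, at 5.60 to 6.33 outside Hep3B, and read 8.04 in Hep3B, the dimmest array. The share of all genes detected in every HCC line is not given here. The 7 undetected members were GSTM5, SULT1E1, UGT1A4, UGT1A5, UGT2A1, UGT2B17 and UGT3A2, although UGT2B17, a steroid glucuronidating enzyme, read 11.70 in Huh-1 with its detection p-value above the threshold. By line the count of members detected was 10 in Hep3B, 19 to 28 in 9 others and 30 in Huh-1. As shares these were 19.2%, 36.5% to 53.8% and 57.7% of members. Of all genes, 24.9% were detected in Hep3B, 32.6% to 35.1% in the 9 others and 33.1% in Huh-1.

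**Figure D1:**
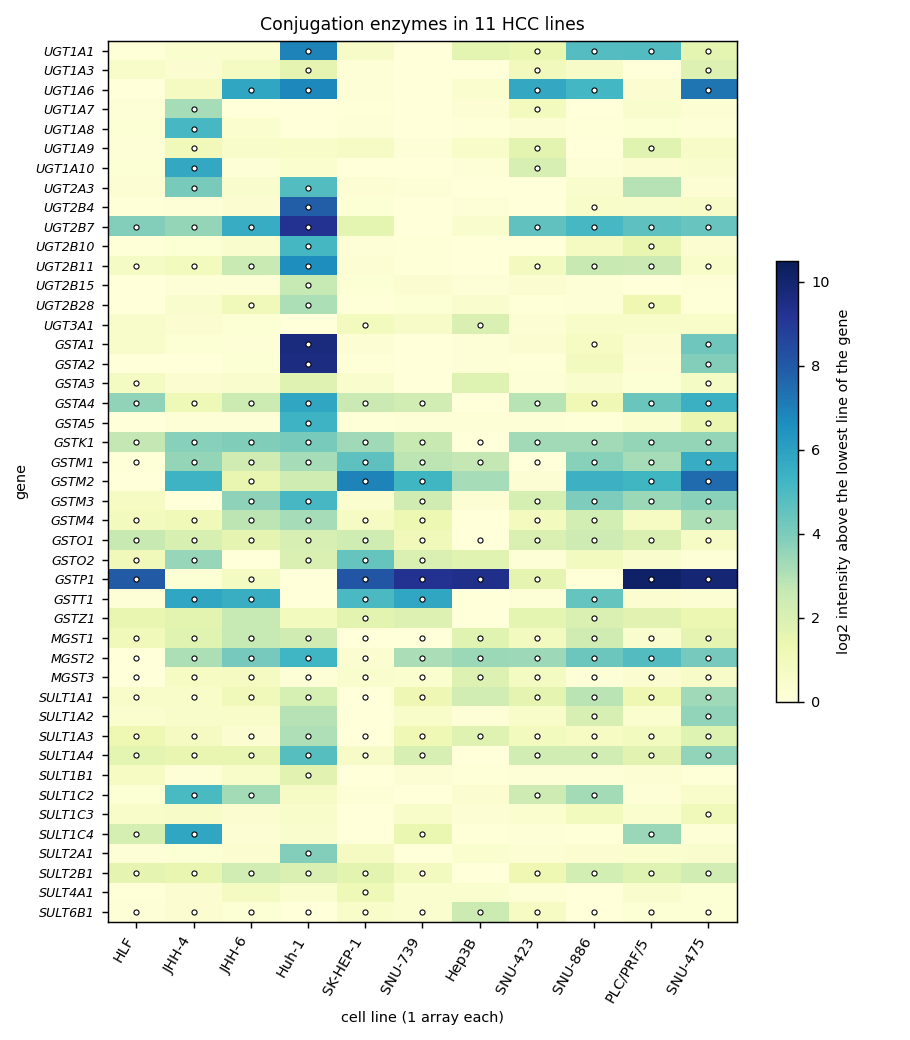
Log2 intensity of the 45 conjugation enzymes detected in at least 1 of the 11 HCC lines, as colour above the lowest line of each gene; rows are genes, columns are lines with 1 array each, and a dot marks detection. Huh-1 has the most members detected (30), Hep3B the fewest (10), and the GSTP1 row splits into lines near the top and near the bottom of its scale.

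GSTP1, the pi-class enzyme, had the largest spread of any member in the HCC lines, with a lowest level of 5.31 in Huh-1, a median of 13.29 and a highest of 15.47 in PLC/PRF/5. It stood at 13.29 in HLF, 13.43 in SK-HEP-1, 14.55 in SNU-739, 14.69 in Hep3B and 15.15 in SNU-475. In the remaining lines it was 6.91 in SNU-423, 6.08 in JHH-6, 5.51 in JHH-4 and 5.37 in SNU-886. No line lay between 6.91 and 13.29, and the gene was not detected in Huh-1, JHH-4 or SNU-886. Its SD over lines, 4.55 log2, ranked 2 of 15486 genes detected in at least 3 HCC lines. The count of hepatocyte markers detected did not order the lines in the same way, since Huh-1 and PLC/PRF/5, both with 15 of 15, held its lowest and its highest level.

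GSTA1 and GSTA2, alpha-class enzymes that are the abundant glutathione transferases of the hepatocyte, were far higher in Huh-1 than in any other HCC line. GSTA1 read 14.21 in Huh-1, 8.81 in SNU-475 and 5.25 in SNU-886, the lines where it was detected, and 4.54 to 5.00 in the other 8, with a median of 4.82. GSTA2 read 14.16 in Huh-1 and 8.46 in SNU-475 and was undetected elsewhere, with a median of 4.73 and a lowest level of 4.60. Both genes had the same order of their 3 highest lines. GSTA5 followed with 9.80 in Huh-1 and 5.83 in SNU-475. These genes are near-identical copies, so signal of one may be read by the probes of another, and their levels are uncertain as separate genes. GSTA4, a divergent member that handles lipid aldehydes, was detected in 10 HCC lines, with a lowest level of 4.70 in Hep3B, a median of 7.16 and a highest of 10.51 in Huh-1, next to 10.13 in SNU-475. GSTA3 stayed at or below 6.49 and was detected in HLF (5.40) and SNU-475 (5.34) but not in Huh-1 (6.41).

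The mu and theta classes, where whole-gene deletions are known to be common in people for GSTM1 and GSTT1, showed 2 kinds of pattern. GSTT1 was detected at 10.25 in SNU-739, 10.24 in JHH-4, 9.97 in JHH-6, 9.46 in SK-HEP-1 and 8.89 in SNU-886, and its other 6 lines read 4.45 to 4.73. It therefore had 2 separate levels with no line between 4.73 and 8.89; gene copy number was not measured. GSTM1 was detected in all 11 lines, from 6.68 in SNU-423 over a median of 9.91 to 12.27 in SNU-475. GSTM2 ran from 4.79 in HLF over a median of 10.01 to 12.34 in SNU-475, and was bright but undetected at 10.16 in JHH-4 and 10.18 in SNU-886. GSTM1 and GSTM2 share much of their sequence and cannot be separated with certainty here. GSTM3, a further mu-class enzyme, ran from 4.47 in JHH-4 over a median of 6.80 to 9.56 in Huh-1.

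Of the omega, kappa and microsomal enzymes, 5 of 6 were detected in every HCC line. GSTO1, which reduces dehydroascorbate and arsenicals, lay between 11.04 and 13.61. MGST3, a microsomal enzyme of the leukotriene pathway family, lay between 12.66 and 13.45 outside Hep3B and at 14.58 in Hep3B, the dimmest array. Before normalization its intensity was 12427 in Hep3B and 15465 in SNU-475, which read 13.26 after it. GSTK1, found in mitochondria and peroxisomes, lay between 10.78 and 12.32 in 10 lines and at 8.23 in Hep3B. MGST2, which can make leukotriene C4, ran from 7.47 in HLF over a median of 10.87 to 12.72 in Huh-1, with SK-HEP-1 (7.78) next to HLF. GSTO2, the second omega enzyme, was the exception, with detection in 5 lines and a range from 4.64 in JHH-6 to 9.09 in SK-HEP-1.

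Among the UGT1A enzymes, UGT1A1 and UGT1A6 differed in their line patterns, while UGT1A4 and UGT1A5 were detected in no HCC line. Because of the shared exons only probes in the first exon tell these genes apart, and probe positions were not used here. UGT1A1, the enzyme that conjugates bilirubin, read 11.50 in Huh-1, 9.48 in PLC/PRF/5, 9.43 in SNU-886, 6.22 in SNU-475 and 6.03 in SNU-423, the 5 lines where it was detected, with a median of 6.03 and a lowest of 4.60. UGT1A6, which acts on small planar phenols, read 11.84 in SNU-475, 11.34 in Huh-1, 10.37 in JHH-6, 10.27 in SNU-423 and 9.76 in SNU-886. Its other 6 lines were between 4.56 and 5.35, PLC/PRF/5 among them at 4.85. JHH-6 and PLC/PRF/5 thus ran opposite ways for the 2 genes, with UGT1A1 undetected at 4.95 in JHH-6.

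UGT1A7, UGT1A8 and UGT1A10, the forms known from stomach and intestine and not from liver, were highest in JHH-4. UGT1A10 read 10.11 in JHH-4 and 6.48 in SNU-423 and at most 4.80 in the other 9 lines. UGT1A8 read 9.59 in JHH-4 and was detected in no other line. UGT1A7 read 7.83 in JHH-4 and 5.49 in SNU-423, the same 2 lines in which UGT1A10 was detected. JHH-4 and SNU-423 had 4 and 6 UGT1A members detected, the most in the HCC group, and JHH-4 read only 5.35 for UGT1A6. UGT1A9 stayed at or below 6.37 in all lines.

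The UGT2 enzymes, which conjugate steroids, bile acids and many drugs, were highest in Huh-1 for all 7 that were detected. UGT2B7, which glucuronidates morphine and steroids, was detected in 8 lines and ran from 4.51 in SNU-739 over a median of 8.92 to 13.74 in Huh-1. It was absent by detection in SK-HEP-1, SNU-739 and Hep3B. UGT2B4, which conjugates bile acids, read 12.55 in Huh-1 and at most 5.23 elsewhere, with a median of 4.82 and a lowest of 4.65. UGT2B11 read 11.35 in Huh-1, 4.71 at its lowest and 5.55 at its median, UGT2B10 read 9.61 in Huh-1 and UGT2B28 7.69. UGT2A3 was detected in 2 lines, with 9.36 in Huh-1, 8.60 in JHH-4, a median of 4.76 and a lowest of 4.52. UGT2B4 was also detected in SNU-886 and SNU-475, UGT2B10 in PLC/PRF/5, and UGT2B28 in JHH-6 and PLC/PRF/5. UGT2B11 was detected in 8 lines, with 7.27 in SNU-886, 7.23 in JHH-6 and 7.20 in PLC/PRF/5. Only UGT2B15 was detected in Huh-1 alone, at 7.13. UGT2B members are similar in sequence, and cross-reading between them was not tested.

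Sulfotransferases split in the same way into broadly and narrowly detected genes. SULT1A1, a phenol sulfotransferase, was detected in 10 lines, from 7.38 in SK-HEP-1 over a median of 8.63 to 10.74 in SNU-475. SULT1A3 and SULT1A4 encode nearly the same dopamine-sulfating protein from duplicated genes and are not separable, and both were highest in Huh-1, at 9.41 and 9.74. SULT2A1, the hydroxysteroid and bile acid sulfotransferase of liver and adrenal, was detected in Huh-1 alone at 8.28, with the other lines between 4.41 and 5.19. SULT1C4 read 10.46 in JHH-4, 8.11 in PLC/PRF/5, 6.79 in HLF and 6.07 in SNU-739, with a median of 4.88 and a lowest of 4.65. SULT1C2 was likewise highest in JHH-4, at 9.69, and was also detected in JHH-6 (7.90), SNU-886 (7.89) and SNU-423 (7.04), with a median of 5.08 and a lowest of 4.63. SULT1E1, the estrogen sulfotransferase, was not detected in any HCC line.

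Huh-1 and PLC/PRF/5 differed in several liver-type enzymes, although all 15 hepatocyte markers were detected in both. The mean level of these markers was 12.15 in Huh-1 and 10.72 in PLC/PRF/5, so the markers were shared by detection and not by level. PLC/PRF/5 read 12.8 for APOB and 14.3 for TF, against 12.7 and 14.5 in Huh-1, and had all 15 hepatocyte markers detected. GSTA1 (4.85), UGT2B4 (5.14) and SULT2A1 (4.77) were nevertheless undetected in it, and Huh-1 read 14.21, 12.55 and 8.28 for them. UGT1A1 at 9.48 and UGT2B7 at 9.14 were detected in PLC/PRF/5. Huh-1 had ALB at 15.42 and PLC/PRF/5 at 9.20, and each line was read once, so no test applies.

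**Figure D2:**
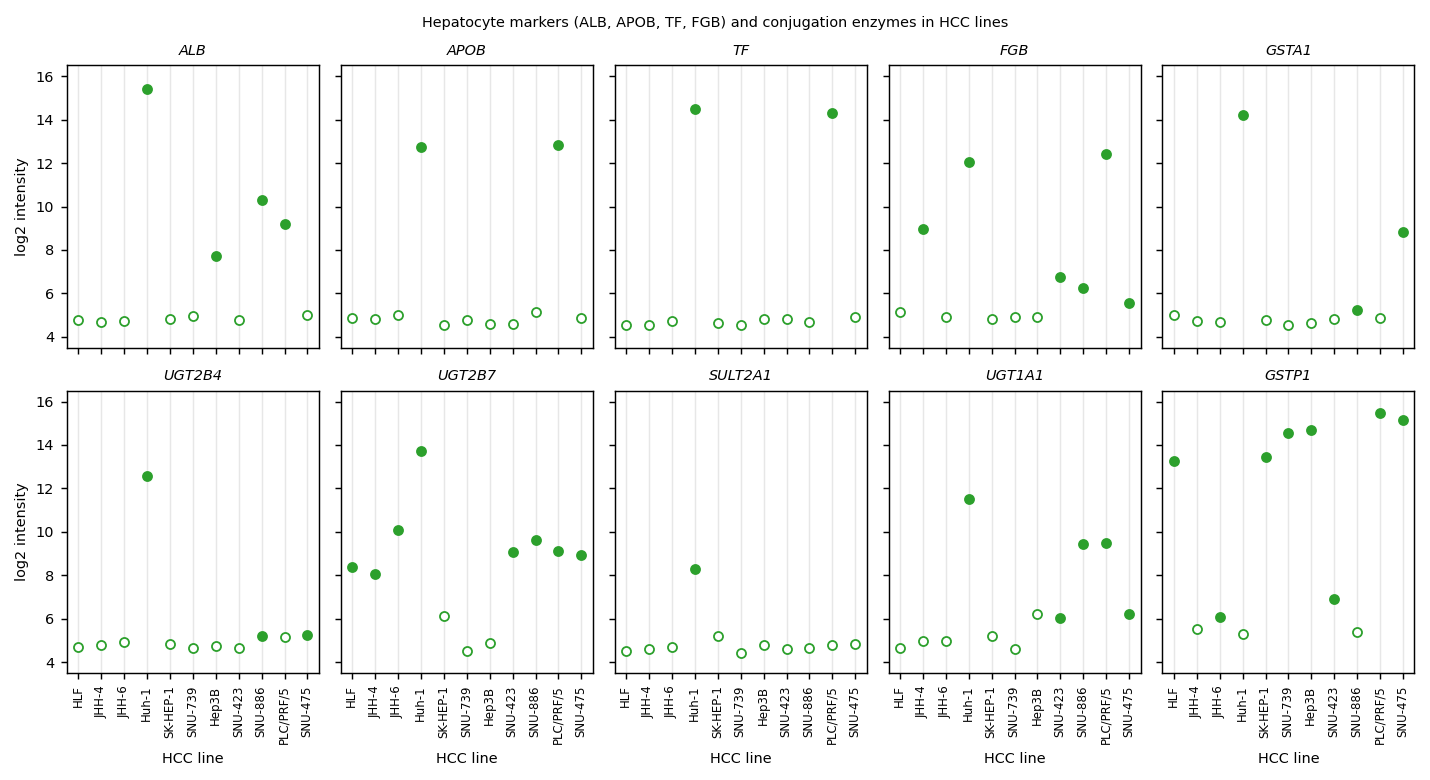
Log2 intensity of 4 hepatocyte markers (ALB, APOB, TF, FGB) and of 6 conjugation enzymes in the 11 HCC lines; filled points were detected and open points were not. TF and APOB are high in Huh-1 and PLC/PRF/5, while GSTA1, UGT2B4 and SULT2A1 are high in Huh-1 and near the floor in PLC/PRF/5. ALB is higher in Huh-1 than in PLC/PRF/5.

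In the lung and pancreatic lines 29 of 54 members were detected in at least 1 line, or 15 of 20 glutathione transferases, 6 of 13 sulfotransferases and 8 of 21 glucuronosyltransferases. All genes on that array were detected in at least 1 line in 61.1% of cases. The 25 undetected members included GSTA1, GSTA2, GSTA3 and GSTA5, SULT2A1, SULT1E1 and SULT1B1, SULT1C2, SULT1C3 and SULT1C4, and UGT2B4, UGT2B10, UGT2B15, UGT2B17 and UGT2B28. The rest of them were GSTM5, SULT4A1, UGT1A4, UGT1A5, UGT1A9, UGT2A1, UGT2A2, UGT2A3, UGT3A1 and UGT3A2. Detection in all 10 lines was found for GSTK1, GSTM1, GSTO1, GSTO2, GSTP1, MGST3, SULT1A3 and UGT1A3. The share of all genes detected in all 10 lines is not given here. The lines had 14 to 26 members detected, with the fewest in Capan-2 and the most in Capan-1. As shares these were 25.9% and 48.1% of members, where 40.8% to 43.7% of all genes were detected by line.

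**Figure D3:**
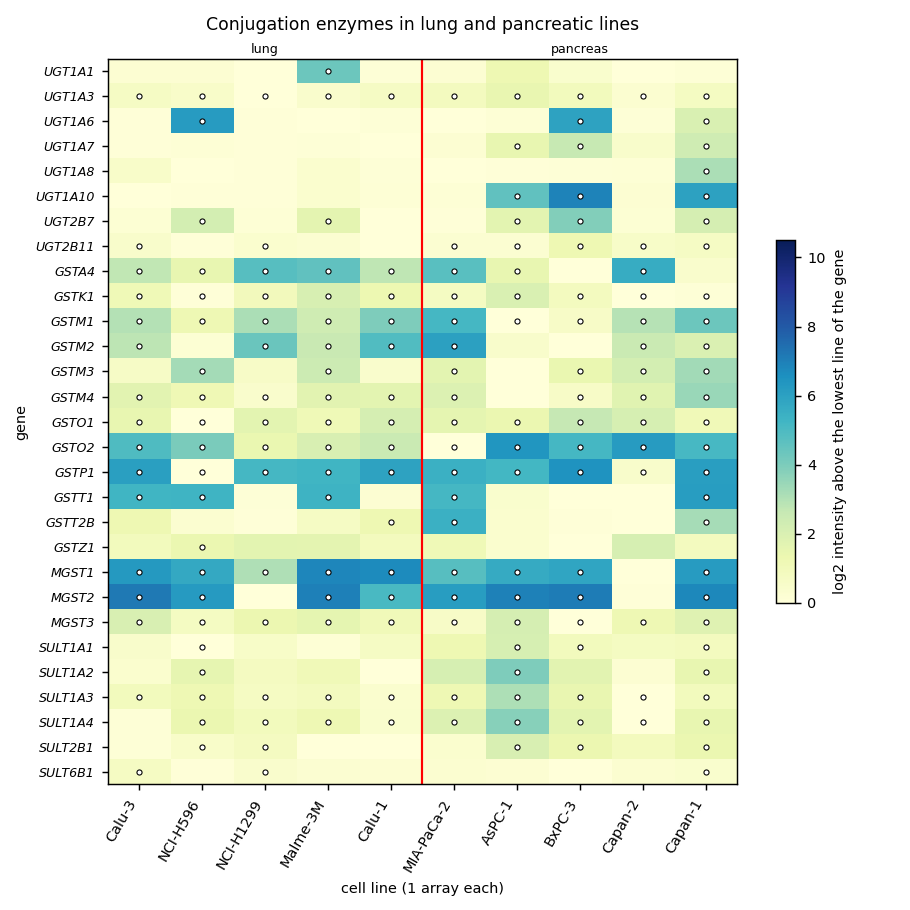
Log2 intensity of the 29 conjugation enzymes detected in at least 1 of the 5 lung lines (left of the red line) and 5 pancreatic lines (right), as colour above the lowest line of each gene, with a dot for detection. GSTP1 is low in NCI-H596 and Capan-2 only, and UGT1A10 is detected in 3 pancreatic lines and in no lung line.

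Of the 29 members, 26 were detected in at least 3 of the 10 lines and were tested between the tissues with limma, with Benjamini-Hochberg adjustment over 16950 genes. None passed an adjusted p of 0.05, where 0.00590% of all genes passed, which was 1 gene. At an unadjusted p under 0.05 there were 4 members, all lower in lung lines, against 3.63% of all genes in either direction and 1.58% lower in lung lines. Among them UGT1A7 and UGT1A10 were detected in 3 pancreatic lines and in no lung line. They passed the detection filter only through those lines, so their direction carries no weight as a shared lean. Over the 26 members 18 were lower in lung lines (69.2%), against 49.7% of all genes. They were 6 of 6 glucuronosyltransferases, 5 of 6 sulfotransferases and 7 of 14 glutathione transferases. The median difference was -0.36 log2, against 0.00218 over all genes. UGT1A7 and UGT1A10 are included in these counts and in the median, which are therefore descriptions only. The sulfotransferases counted as lower include SULT1A1, SULT1A2, SULT1A3 and SULT1A4, which were all highest in the same pancreatic line, AsPC-1. With 5 lines a group and this spread, tissue differences of the members were not established.

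UGT1A7, a stomach and gut form, read 5.08 in Calu-3, 5.13 in NCI-H596, 5.06 in NCI-H1299, 5.11 in Malme-3M and 5.00 in Calu-1. It read 5.21 in MIA-PaCa-2, 6.51 in AsPC-1, 7.62 in BxPC-3, 5.49 in Capan-2 and 7.34 in Capan-1, being detected in the 3 highest of these. Lines follow in this order wherever 5 values per tissue are given. MIA-PaCa-2, Capan-2 and all 5 lung lines were undetected, so their values have no order. The fitted difference was -1.36 log2 (SE 0.45, limma p = 0.0129, adjusted p = 1.00). Because no lung line had it detected, each lung line was raised to at least the lowest level of any detected gene in that line. On that basis it was 2.03-fold lower in lung lines. MIA-PaCa-2 and Capan-2 entered at their undetected values, so this fold is not a strict bound. Without background correction the difference was -0.71 log2.

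UGT1A10, also a gut form, read 4.87, 4.92, 4.95, 5.23 and 5.00 in the lung lines. The pancreatic lines gave 5.00, 9.43, 11.78, 5.11 and 10.83, with AsPC-1, BxPC-3 and Capan-1 detected and high. The difference was -3.43 log2 (SE 1.28, limma p = 0.0223, adjusted p = 1.00). With the lung lines raised as for UGT1A7, it was 8.10-fold lower in lung lines, which again is not a strict bound. Without background correction the difference was -2.39 log2. MIA-PaCa-2 and Capan-2 lay at the level of the lung lines, so the groups overlapped. The detection filter drops the gene when AsPC-1, BxPC-3 or Capan-1 is left out, and with no filter the difference was -2.59 log2 without BxPC-3.

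Among sulfotransferases, SULT1A1 read 9.20, 8.71, 9.25, 8.86 and 9.39 in the lung lines, with only NCI-H596 detected, and 9.97, 10.84, 9.65, 9.46 and 9.55 in the pancreatic lines, with AsPC-1, BxPC-3 and Capan-1 detected. The groups did not overlap, as for 0.619% of all genes, although 6 of the 10 lines were undetected, and the difference was -0.81 log2 (SE 0.29, limma p = 0.0182, adjusted p = 1.00). SULT2B1, which sulfates cholesterol in skin and other epithelia, read 5.66, 6.10, 6.35, 5.59 and 5.57 in lung lines and 5.90, 7.62, 6.90, 6.45 and 6.93 in pancreatic lines. Its difference was -0.91 log2 (SE 0.32, limma p = 0.0182, adjusted p = 1.00), with 5 of the 10 lines undetected and the groups overlapping. It was -0.43 log2 without background correction and -0.42 on the authors' processed values. SULT1A2 averaged 6.71 ± 0.60 in lung lines and 7.85 ± 1.35 in pancreatic lines, and SULT1A4 8.21 ± 0.54 and 9.18 ± 1.36 (SD, n = 5 each). Both were highest in AsPC-1, at 9.91 and 11.21, and neither difference reached an unadjusted p of 0.05 in limma. Without AsPC-1 the SULT1A4 difference was -0.46 log2, against -0.97 with it, and that of SULT1A2, with no filter on detection, was -0.63 against -1.14.

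**Figure D4:**
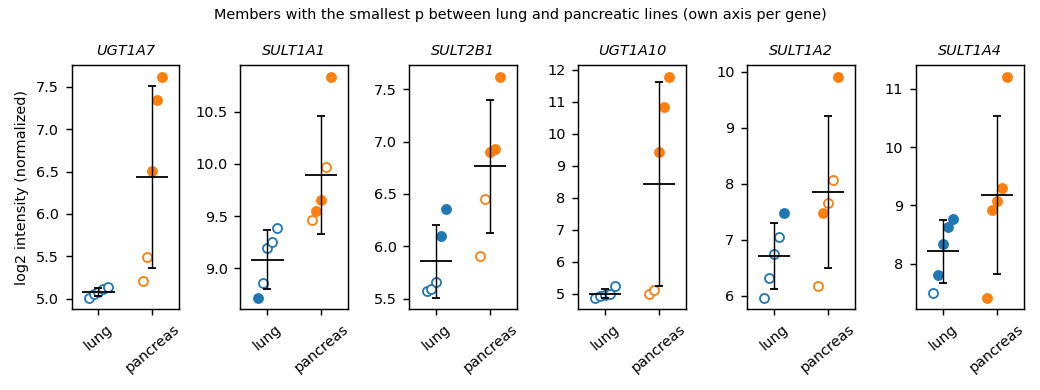
Log2 intensity of the 6 members with the smallest limma p between the 5 lung and 5 pancreatic lines, one panel a gene with an axis of its own; each point is a line, filled where detected, with the mean as a bar and the SD as whiskers. UGT1A7 and UGT1A10 are detected in 3 of 5 pancreatic lines and in no lung line, and SULT1A2 and SULT1A4 are highest in 1 pancreatic line, AsPC-1.

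GSTP1, MGST1 and MGST2 varied widely between lines of the same tissue. GSTP1 read 14.34, 8.28, 13.42, 13.55 and 14.20 in the lung lines and 13.70, 13.48, 14.74, 8.75 and 14.38 in the pancreatic lines. NCI-H596 and Capan-2 were far below the rest, and the mean difference was -0.25 log2 (SE 1.40). Capan-2 had 3 of 6 epithelial markers detected, without KRT8 and KRT18, and NCI-H596 had 6 of 6. The part of these markers in the GSTP1 level was not tested.

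MGST1 and MGST2 were also low in Capan-2, whereas MGST3 at 12.69 lay within the range of the other pancreatic lines (11.48 to 13.66). MGST2 read 12.80, 11.86, 5.64, 12.65 and 10.68 in the lung lines and 11.75, 12.58, 12.69, 5.68 and 12.44 in the pancreatic lines, so NCI-H1299 and Capan-2 were without detection. MGST1, an abundant membrane glutathione transferase, read 11.32, 10.78, 8.12, 11.92 and 11.80 in lung lines and 9.85, 10.72, 10.94, 5.07 and 11.25 in pancreatic lines. Both genes were lowest in Capan-2 and NCI-H1299 of their tissues. GSTO2 read 12.53 in Capan-2, 12.74 in AsPC-1, 11.49 in BxPC-3 and 11.45 in Capan-1, but 6.35 in MIA-PaCa-2. The lung lines read 11.30, 10.39, 7.76, 8.40 and 8.87, with NCI-H1299 the lowest of them.

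GSTT1 was again at 2 levels. It was detected in Calu-3 (10.18), NCI-H596 (10.24) and Malme-3M (10.27) among lung lines and in MIA-PaCa-2 (10.06) and Capan-1 (11.05) among pancreatic lines. The other 5 lines lay between 4.92 and 5.30. GSTT2B, a theta-class gene with a near-identical pseudogene partner, read 6.10, 5.16, 4.94, 5.53 and 6.10 in the lung lines and 10.29, 5.20, 4.91, 4.86 and 8.08 in the pancreatic lines, and its signal may come from that partner as well. The row listed as GSTT2, left out as a pseudogene, carries the accession of a GSTT2B transcript on this array and read 10.32 in MIA-PaCa-2 and 8.47 in Capan-1.

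The mu class and GSTA4 had wide ranges in both tissues. GSTM1 read 9.23, 7.48, 9.40, 8.62 and 10.25 in lung lines and 11.44, 6.27, 6.86, 9.20 and 10.61 in pancreatic lines. GSTM2 read 8.20, 5.55, 9.75, 7.92 and 10.26 in lung lines and 11.38, 5.85, 5.37, 7.90 and 7.32 in pancreatic lines. Both were highest in MIA-PaCa-2 and low in AsPC-1 and BxPC-3, as sequence-related genes whose probes may share signal. GSTM3 read 5.57, 8.22, 5.55, 7.39 and 5.38 in lung lines and 6.62, 4.95, 6.36, 7.14 and 8.23 in pancreatic lines. GSTA4 read 7.98, 6.78, 10.04, 9.84 and 8.05 in lung lines and 10.02, 6.74, 5.26, 10.86 and 5.68 in pancreatic lines, with BxPC-3 and Capan-1 undetected.

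Glucuronosyltransferases were patchy. UGT1A6 was detected in NCI-H596 at 11.11 among lung lines, with the other 4 between 4.96 and 5.07, and in BxPC-3 (10.88) and Capan-1 (6.96) among pancreatic lines, with the other 3 between 4.95 and 5.09. UGT1A1 was detected in the library labelled Malme-3M alone, at 9.07, with the other 9 lines between 4.75 and 5.99. UGT2B7 read 5.29, 7.33, 5.28, 6.74 and 5.12 in lung lines and 5.17, 6.76, 9.0, 5.32 and 7.28 in pancreatic lines. BxPC-3 and Capan-1 were thus among the highest lines for UGT1A6, UGT1A7, UGT1A10 and UGT2B7.

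Spread over lines was wide for the members in both designs. Among genes detected in at least 3 lines, the median SD was 1.69 log2 for 29 members against 0.77 for all 15486 genes in the HCC lines. It was 1.17 for 26 members against 0.57 for all 16950 genes in the lung and pancreatic lines. In HCC lines 24 of the 29 lay above the median of all genes, and in the other lines 23 of the 26 did. The filter was the same for members and for all genes, and a member detected in few lines enters it with a wide spread, so these medians describe the detected members and were not tested.

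**Figure D5:**
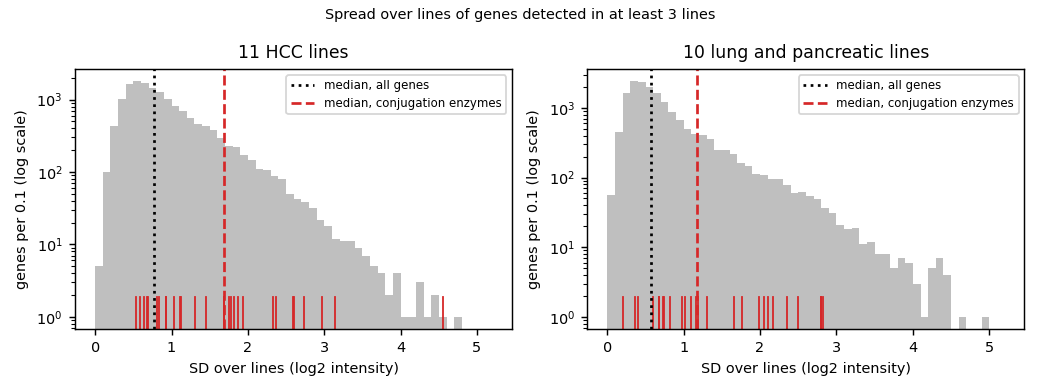
Number of genes (log scale) by SD of log2 intensity over the 11 HCC lines (left) and the 10 lung and pancreatic lines (right), for genes detected in at least 3 lines; red ticks are conjugation enzymes, and dotted and dashed lines are the medians of all genes and of these enzymes. The median of the enzymes lies at 1.69 against 0.77 in HCC lines and at 1.17 against 0.57 in the others.

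Genes that supply the donors or export the conjugates were described from lists of known pathway members. Between lung and pancreatic lines none of the genes tested passed in any list, at 0 of 4 for UDP-glucuronate supply, 0 of 10 for glutathione supply, 0 of 7 for sulfate donor supply, 0 of 5 for other conjugating transferases, 0 of 3 for hydrolases that remove conjugates, 0 of 5 for conjugate exporters, 0 of 13 for the NRF2 pathway and 0 of 7 for regulators (limma, adjusted over all genes). The regulator CDX2, an intestinal transcription factor, came nearest, with 5.43 ± 0.59 in lung lines and 8.85 ± 1.01 in pancreatic lines (SD, n = 5 each), a difference of -3.42 log2 (SE 0.49, adjusted p = 0.138). It was detected in all 5 pancreatic lines and in Calu-1 of the lung lines. UGT1A10 was not detected in MIA-PaCa-2, Capan-2 or Calu-1, and the part of CDX2 in its level was not tested.

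In the HCC lines UGDH, which makes UDP-glucuronate, ran from 9.53 over a median of 11.03 to 13.23 in SNU-886. BAAT, which joins bile acids to amino acids, read 11.81 in Huh-1, 10.46 in JHH-4 and 7.31 in PLC/PRF/5 and was undetected in the other 8. ABCC3, an exporter of glucuronides, lay at 9.92 to 11.72 in Huh-1, JHH-4, JHH-6, SNU-886, SNU-423 and SNU-475, and at 5.16 to 7.37 in the other 5. AKR1B10, a reductase known as a target of NRF2, read 15.37 in SNU-475, 15.29 in Huh-1, 15.22 in JHH-6 and 11.96 in SNU-886, and UGT1A6 was detected in the same 4 lines. SNU-423, where AKR1B10 was 5.49, also had UGT1A6 detected, and JHH-4, where AKR1B10 was 9.32, did not. NQO1, a further target, was highest in SNU-475 (13.93) and Huh-1 (13.58), the 2 lines with GSTA2 detected. CEBPA, a hepatocyte transcription factor, read 13.41 in Huh-1, 12.22 in Hep3B and 9.58 in PLC/PRF/5, and HNF4A, which acts upstream of many liver genes, was highest in Huh-1 at 7.12. No correlation was computed over these lines, and the part of these genes in the enzyme levels was not tested.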

How the data were processed

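The authors deposited raw intensity, the average bead signal per gene from BeadStudio per the submitters' processing notes (version not given in the sources used here), with a detection p-value beside each intensity per the file headers. They also deposited processed intensity, whose normalization is not stated. SNU-475 came in a raw table of its own and was joined to the other HCC lines. Gene names were updated through RefSeq names, and the brightest row of a gene was kept.

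A normal-exponential background model was applied in R 4.3.3 (limma 3.58.1), with a control mean and SD for each array taken from a regression. It regressed median intensity per detection p-value, between 0.1 and 0.9, on normal quantiles. An offset of 16 was added before quantile normalization and log2. The 11 HCC lines and the 10 others were normalized apart. Lung was compared with pancreas by lmFit and eBayes over genes with detection p under 0.05 in at least 3 of 10 lines, and the code was tested on simulated data. Where no lung line had detection, the fold was taken with lung values raised to at least the lowest detected level of their line. Undetected pancreatic values were kept as they were, so such a fold is not a strict bound.

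The members and lists were chosen with earlier results of these data known. Values were given for the 15 members of largest SD in each design and for the 6 of smallest p. Rows named GSTM1L, GSTT2, GSTTP1 and GSTTP2 were left out as pseudogenes by name or by RefSeq. GSTTP1 was left out by its listed name only, as RefSeq now gives it as GSTT4, a protein-coding gene. It was detected in no line of either design. Precision is limited by 1 array per line. LSD1 dependence of the lines was not analysed here.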

Additional observations from a re-analysis of the deposited data

Results flagged for a closer look

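Of 38 gene and tissue groups checked in lung and pancreatic lines, 7 had 1 line far from the other 4. Chance gives about 1 in 20 for normal values, but these genes were picked for wide spread or small p in the same lines, and in some groups the other 4 lines were undetected, so the number of such groups is a description only. In log2 intensity they were GSTO2 in MIA-PaCa-2 (6.35, other pancreatic lines 11.45 to 12.74), GSTP1 in NCI-H596 (8.28, other lung lines 13.42 to 14.34) and GSTP1 in Capan-2 (8.75, others 13.48 to 14.74). MGST1 (5.07, others 9.85 to 11.25) and MGST2 (5.68, others 11.75 to 12.69) were low in Capan-2. That library also lacked KRT8, KRT18, KRT19 and SOX9 and had 3 of 6 epithelial markers detected. UGT1A1 was high in the library labelled Malme-3M (9.07, other lung lines 4.76 to 4.99) and UGT1A6 was high in NCI-H596 (11.11, others 4.96 to 5.07).

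Rows left out by name or RefSeq status also carried signal. The row listed as GSTT2, a name RefSeq gives as a transcribed pseudogene, was detected in 10 of 11 HCC lines, at up to 10.00 in Hep3B. In the lung and pancreas table it was detected in 3 of 10 lines, Calu-1, MIA-PaCa-2 and Capan-1, the same lines as GSTT2B. There it carries the accession of a GSTT2B transcript, and which of the 2 genes it reads cannot be told apart. GSTTP2 was detected in 4 HCC lines.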

How the results depend on the processing

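No member passed between lung and pancreatic lines under any of 7 other settings or with any of the 10 lines left out. The count of all genes passing was 1 and became 2 when detection at 0.01 was required in 5 or more lines and 3 without Malme-3M, Calu-3 and Capan-2, and lay between 1 and 4 with single lines left out. Without Calu-3 it was 3, without BxPC-3 it was 4, and leaving out Capan-2, AsPC-1 or NCI-H1299 gave 2 each time. The 6 named differences were negative wherever they had a value. These 6 were picked for the smallest p in the same lines, so their unchanged sign is a description and no support. For UGT1A7 and SULT1A1 the values of the 2 tissues did not overlap, so leaving out 1 line could hardly change the sign. The stricter detection filter left 5 of the 6 differences without a value. Under the main filter UGT1A7, UGT1A10 and SULT1A2 had a value for 7 of the 10 lines left out. With no filter, a fit chosen after seeing the data, all 6 were negative for each of the 10 lines, at -4.30 to -2.59 log2 for UGT1A10, -1.68 to -1.06 for UGT1A7, -1.57 to -0.63 for SULT1A2, -1.42 to -0.46 for SULT1A4, -1.13 to -0.70 for SULT2B1 and -0.92 to -0.57 for SULT1A1. Over the other settings UGT1A10 ranged from -4.33 to -2.39, UGT1A7 from -1.63 to -0.71, SULT1A2 from -1.56 to -0.73 and SULT2B1 from -0.91 to -0.42. The median SD of members in lung and pancreatic lines (1.17) was 0.753 without background correction, 0.748 on the authors' processed values and 0.981 with an offset of 50. In HCC lines (1.69) it was 0.996, 0.976 and 1.30 in the same order, 1.81 with median scaling, 1.31 for genes detected in at least 1 line, 1.47 without SNU-475 and 1.65 without Hep3B. The median of all genes was lower than that of the members in each of these. At a detection p under 0.01, 24 members in lung and pancreatic lines and 35 in HCC lines were detected. Leaving out Hep3B, or the 3 libraries named above, was chosen after seeing the data for the counts of detected members, and gave 45 and 28. limma's own inference of the controls (neqc) could not be used: from the rounded detection p-values it put the control mean at 2026 to 2606, against 112.7 to 139.2 by regression, and flattened the corrected intensities to between 25.98 and 26.72. No paired analysis was possible because each line was read once and the labels give no replicate numbers.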
